A study of Mus musculus with 28 samples.

Results

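The response of mouse embryonic stem (ES) cells to an Etv5 transgene was measured on 4 of the 28 arrays of a study of 7 inducible ES cell lines, all 4 of them from the line labelled tetEtv5. These 4 were taken by their labels: 2 arrays of cells kept with doxycycline (Dox), in which the transgene was off, and 2 arrays of cells without Dox, in which it was on. The cells were male and of strain 126S6/SvEvTac as the labels spell it, at passage 25, in medium with LIF. All were a single clone, number 24, and all carried the transgene and were plated in puromycin at 1.5 µg/ml with Dox at 0.2 µg/ml. In the labels of all 7 lines the same entry, MC1R with a clone-like number, stands before the transgene. The labels do not say what this shared entry means. Wells of both kinds were washed, and RNA was taken 48 h after the final wash. The line was split into 6 wells, 3 per culture, of which 2 per culture went to arrays. The p-values therefore measure the spread between wells within a clone, pooled over the 7 lines, and not the spread between clones.

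Etv5 (also called ERM) is a transcription factor of the ETS family, in the PEA3 group with Etv1 and Etv4. ETS factors bind DNA at a short purine-rich core. In many embryonic tissues the PEA3 group is switched on by FGF signalling through ERK and acts as a readout of that pathway, and Etv5 is expressed in undifferentiated ES cells. In a line of this type Dox represses the transgene, and its removal turns the transgene on. In every line of the study the same removal of Dox was made, so that the other 6 lines, with transgenes for Tcl1, Tbx3, Jarid2, Jmjd2c, Ctbp2 and Mettl5, show what wells without Dox look like when another factor is induced.

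Each array carried the Cy3-labelled sample and a Cy5-labelled reference, which mixed RNA pooled over cultured mouse lines with ES cell RNA. Levels are log2 of sample over reference, so 0 means as much signal as in the reference. The array held 42006 different probes of 60 bases. A probe was tested if its Cy3 signal was well above background, as judged by the scanner software, on both arrays with Dox or both without, which 27979 probes met. On the Etv5 arrays the median Cy3 signal was 107 to 117, or 2.43 to 2.80 times the local background, and 27149 to 28841 probes were well above background. Replicates correlated at r = 0.990 with Dox and 0.985 without Dox across probes. All 4 arrays lay on 1 slide, the cultures with Dox at positions 1 and 2 and those without at positions 3 and 4, so culture and position on the slide cannot be told apart. The files pair no probe with a gene. The unit of every result is therefore the probe, and the transgene's own transcript and the markers of ES cells and of other cell types were not analysed here. That the arrays are those of the Etv5 line, with the transgene on or off, rests on the labels.

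The 10 probes on which most of the description turns are shown by sequence, since the sequence is their only identity. The first 4 have the largest log2 differences, 2 up and 2 down, among the called probes whose higher culture was bright, that is well above background on each of its arrays. The last 6, chosen after their values were seen, have the smallest p among called probes that changed at least 1.5-fold and were well above background in both dyes on all 4 arrays, 3 in each direction. Lower case is used throughout because no letters are singled out.
Z00068697-1: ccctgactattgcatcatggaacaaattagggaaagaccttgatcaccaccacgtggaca
Z00041529-1: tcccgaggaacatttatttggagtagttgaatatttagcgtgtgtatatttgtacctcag
Z00029957-1: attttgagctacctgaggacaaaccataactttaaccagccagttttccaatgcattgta
Z00063153-1: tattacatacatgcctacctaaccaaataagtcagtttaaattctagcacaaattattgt
Z00062714-1: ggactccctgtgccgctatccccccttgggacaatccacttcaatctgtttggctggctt
Z00074836-1: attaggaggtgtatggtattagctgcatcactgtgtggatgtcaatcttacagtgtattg
Z00075454-1: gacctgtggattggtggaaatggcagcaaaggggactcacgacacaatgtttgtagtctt
Z00074986-1: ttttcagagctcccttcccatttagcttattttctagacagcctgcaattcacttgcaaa
Z00077019-1: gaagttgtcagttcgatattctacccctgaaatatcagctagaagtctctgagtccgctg
Z00024815-1: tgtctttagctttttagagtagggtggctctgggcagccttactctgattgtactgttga

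Removal of Dox from the Etv5 line was followed by many small changes rather than a few large ones. Of the 27979 probes tested, 1230 (4.4%) passed limma's test at a Benjamini-Hochberg adjusted p under 0.05, 523 (1.87%) higher and 707 (2.53%) lower without Dox. Among them the median size of the change was 0.37 for the rises and 0.32 for the falls on the log2 scale, against 0.10 over all tested probes. A change of at least 1.5-fold was reached by 168 of the 1230, 79 of them rises and 89 falls, and one of at least 2-fold by 32, 17 rises and 15 falls. The last probe inside the threshold, Z00043170-1, changed by 0.21 with an adjusted p of 0.04992, and the first outside, Z00075218-1, by 0.23 with an adjusted p of 0.05001.

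The cultures without Dox did not overlap those with Dox for any of the 1230, but the same was true of 16845 of 27974 probes (60.2%), so separation of 2 arrays from 2 says little by itself. The spread was estimated over all 28 arrays in 14 groups. With the 4 Etv5 arrays alone limma called 0 probes, the smallest adjusted p being 0.0846, while 7139 had an unadjusted p under 0.05. Without the 4 arrays of the Tbx3 line, whose replicates differed most, 3357 probes passed. Any 1 of the 4 Etv5 arrays mattered as well: 345 and 461 probes passed without replicates 1 and 2 with Dox, and 572 and 389 without replicates 1 and 2 without Dox.

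The balance between rises and falls depended on the scale. Read from the Cy3 channel alone, 695 probes rose and 623 fell, where the ratio to the reference gave 523 and 707. Of the 1318 probes called in Cy3, 827 were among the 1230. The Cy5 reference RNA was the same on every array, and in that channel 6 probes (0.0214%) differed between the Etv5 cultures by the same test. The median change of all tested probes was -0.01.

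The best measured rise was that of Z00062714-1. Its level was 0.11 and 0.17 with Dox and 1.01 and 1.00 without, a rise of 0.86 ± 0.05 (SE, n = 2 per culture; limma adjusted p = 7.26e-07), or 1.82-fold. The replicates lay close together and the cultures far apart. This probe also rose in other lines, by 1.72 in the Ctbp2 line and 0.47 in the Jmjd2c line, and fell by 0.60 in the Tcl1 line (limma adjusted p = 2.17e-11, 0.00138 and 3.18e-06). The rise with Etv5 was thus smaller than with Ctbp2 (adjusted p of the difference 6.47e-06 in limma) and larger than the mean of the other 6 lines by 0.58.

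The second rise went the other way with Ctbp2. Z00074836-1 stood at -0.39 and -0.44 with Dox and at 0.33 and 0.28 without, a rise of 0.72 ± 0.06 (SE, n = 2 per culture; limma adjusted p = 4.14e-06). In the Ctbp2 line the same probe fell by 0.82, and in the Tcl1 line by 0.37 (limma adjusted p = 1.66e-07 and 0.000593). With Dox its level in the Etv5 clone was 0.37 below the mean of the other uninduced lines. Without Dox it lay inside their range of -1.10 to 0.60.

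The third rise was shared with the Tcl1 line. Z00075454-1 gave 0.41 and 0.47 with Dox and 1.20 and 1.21 without, a rise of 0.77 ± 0.06 (SE, n = 2 per culture; limma adjusted p = 4.14e-06). In the Tcl1 line it rose by 0.56 (limma adjusted p = 2.04e-05), but the Etv5 and Tcl1 changes did not differ at the threshold (limma adjusted p = 0.23). With Dox the Etv5 clone differed from the mean of the other lines by 0.00. Without Dox its mean of 1.21 was above the highest uninduced mean of another line, 1.12.

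The 3 best measured falls had a pattern in common. With Dox each was above the mean of the other uninduced lines, and without Dox each was below the lowest of them. They were chosen on these same arrays, which favours such a pattern, so no test of it is given. Z00074986-1 fell from 1.73 and 1.57 with Dox to 0.78 and 0.79 without, a change of -0.87 ± 0.06 (SE, n = 2 per culture; limma adjusted p = 7.26e-07). The other uninduced lines ranged from 0.91 to 2.13, and with Dox this clone lay 0.45 above their mean. The Tbx3 line moved the opposite way, with a rise of 0.44 (limma adjusted p = 0.00102).

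Z00077019-1 had the largest of these falls, from 2.32 and 2.13 with Dox to 1.09 and 1.06 without, a change of -1.15 ± 0.08 or 2.22-fold (SE, n = 2 per culture; limma adjusted p = 3.37e-06). It too rose in the Tbx3 line, by 0.64 (limma adjusted p = 0.00123), and the lowest other uninduced line stood at 1.35. Z00024815-1 fell from 2.03 and 2.04 to 0.96 and 0.94, a change of -1.08 ± 0.08 (SE, n = 2 per culture; limma adjusted p = 4.14e-06), against a lowest other level of 1.28. In the Tbx3 line it rose by 0.34 (limma adjusted p = 0.0276). For each of the 6 probes the Etv5 change differed from that of the Mettl5 line by the same test, with adjusted p between 0.0036 and 0.0192. With the replicate number as a block, none of these 6 differences passed.

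**Figure D1:**
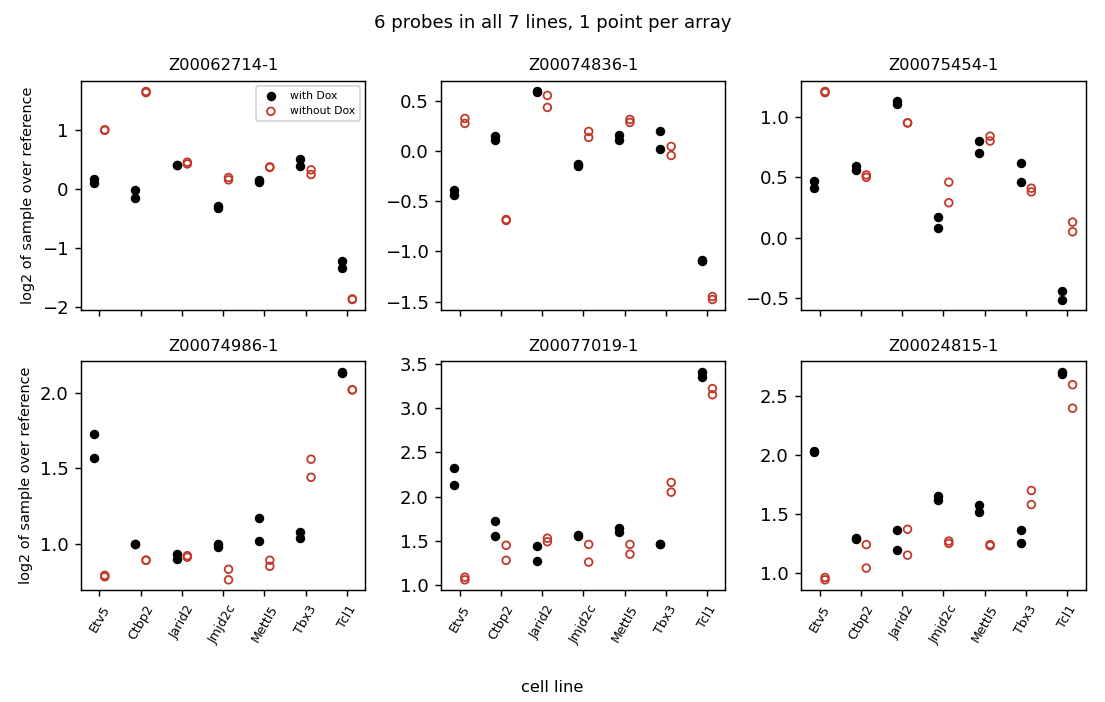
Levels of the 6 best measured probes (log2 of sample over reference, vertical axis) in the 7 lines (horizontal axis), 1 point per array, filled with Dox and open without. Z00062714-1 rises from 0.14 to 1.00 in the Etv5 line and by 1.72 in the Ctbp2 line, while the 3 falling probes end below every other uninduced line.

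The largest log2 differences belonged to probes that were not well above background in one culture, for which only a bound on the fold is supported. These bounds, 1.06-fold to 1.39-fold, were taken on Cy3 signals after normexp background correction and loess. The 1.65-fold to 2.22-fold of the 6 bright probes came from ratios of the scanner's processed signals. The scales differ and a bound is only a lower limit, so the ranges do not show which changes were larger. The 4 dim probes entered the test only through their bright culture. This by itself favours the direction of their change and a small p. Z00068697-1 was at -3.49 and -3.96 with Dox and at -1.23 and -0.39 without, a rise of 2.91 ± 0.38 (SE, n = 2 per culture; limma adjusted p = 0.000369). With Dox neither array had it well above background, so that the signals support only a rise of at least 1.39-fold. This bound, used for all 4 dim probes, sets the mean of the bright culture against the weakest signal that was well above background on the arrays of the dim culture, or against the probe's own where that was higher. The same probe rose by 1.48 in the Tbx3 line (limma adjusted p = 0.0329), but the Etv5 and Tbx3 changes did not differ at the threshold (limma adjusted p = 0.109).

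Z00041529-1 was at -2.29 and -1.43 with Dox and at 0.49 and 0.81 without, a rise of 2.51 ± 0.65 (SE, n = 2 per culture; limma adjusted p = 0.0383) and of at least 1.33-fold. Z00029957-1 fell from 3.41 and 2.81 to 1.78 and 0.37, by 2.04 ± 0.55 (limma adjusted p = 0.0459) and at least 1.06-fold, and Z00063153-1 from 3.75 and 2.81 to 1.51 and 1.09, by 1.98 ± 0.46 (limma adjusted p = 0.0201) and at least 1.20-fold. Neither fall was well above background without Dox, and replicates of Z00029957-1 lay at 1.78 and 0.37. The test against the mean of the other 6 lines passed for none of these 3 (limma adjusted p = 0.0642, 0.143 and 0.0709). Z00063153-1 changed by -1.95 in the Mettl5 line, which did not pass there (limma adjusted p = 0.229). With normexp background correction and loess in place of the scanner's processed signals, the change of Z00029957-1 was -0.17 and its call was lost (limma adjusted p = 0.3). It was also lost in Cy3 alone, with no filter and without any of 3 of the arrays (0.0648 to 0.474). The call of Z00041529-1 was lost with no filter and without any 1 of the 4 arrays (limma adjusted p = 0.0638 to 0.33), and that of Z00063153-1 without any of 3 of the arrays (limma adjusted p = 0.0647 to 0.271). Depending on the processing or the array left out, the change of Z00068697-1 ranged from 0.58 to 3.33, that of Z00041529-1 from 0.44 to 2.94 and that of Z00063153-1 from -2.45 to -0.32.

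**Figure D2:**
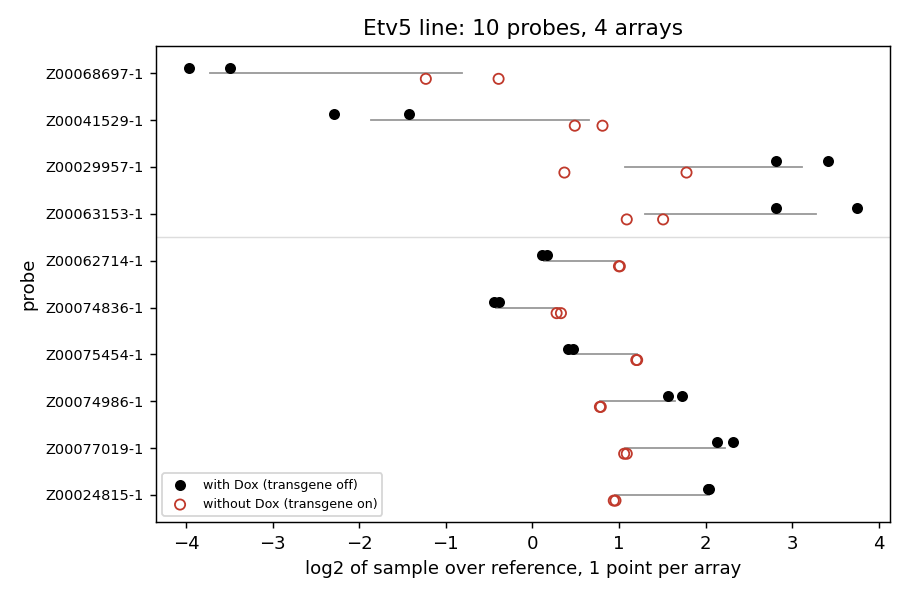
Level of 10 probes (vertical axis) as log2 of sample over reference (horizontal axis) on the 4 Etv5 arrays, 1 point per array, with a line between the 2 culture means. The 4 probes above the grey line were not well above background in one culture, so the distance between their cultures is only bounded, at 1.06-fold to 1.39-fold or more. Their replicates spread, while those of the 6 bright probes below it lie closer together, as at 2.32 and 2.13 for Z00077019-1 with Dox. The 6 were chosen by the smallest p, which by itself favours close replicates.

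Probes switched across the background were few. Well above background on both arrays without Dox and on neither with Dox were 60 probes, of which 5 were called (8.33%). In the opposite direction there were 163 probes, of which 4 were called (2.45%). Over all tested probes 4.4% were called. The probes of these 2 sets entered the test only through the culture where they were bright. This by itself favours the direction of their change, so no test of these shares is given. For these 9 the bound on the change was at least 1.06-fold to at least 1.48-fold. The highest bound was that of Z00000793-1, at -3.92 and -4.13 with Dox and at -1.48 and -1.73 without. Of the 1230 called probes, 1209 (98.3%) were well above background on all 4 arrays, as were 26626 (95.2%) of all tested probes.

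Calls were unevenly spread over signal. The tested probes were ordered by Cy3 signal in the other 6 lines. Those lines took no part in the choice of tested probes, but their spread enters the test that made the calls. The lowest of 4 equal parts of the tested probes held 76 calls (1.09%), the next 398 (5.69%), the third 508 (7.26%) and the brightest 248 (3.55%). The median standard error fell along the same order, at 0.26, 0.11, 0.08 and 0.07, and the median size of a called change at 0.77, 0.43, 0.30 and 0.25. Of the 32 changes of at least 2-fold, 23 were in the lowest part, 8 in the second, 1 in the third and 0 in the brightest. Changes of this size were thus seen mainly where the standard error was largest.

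**Figure D3:**
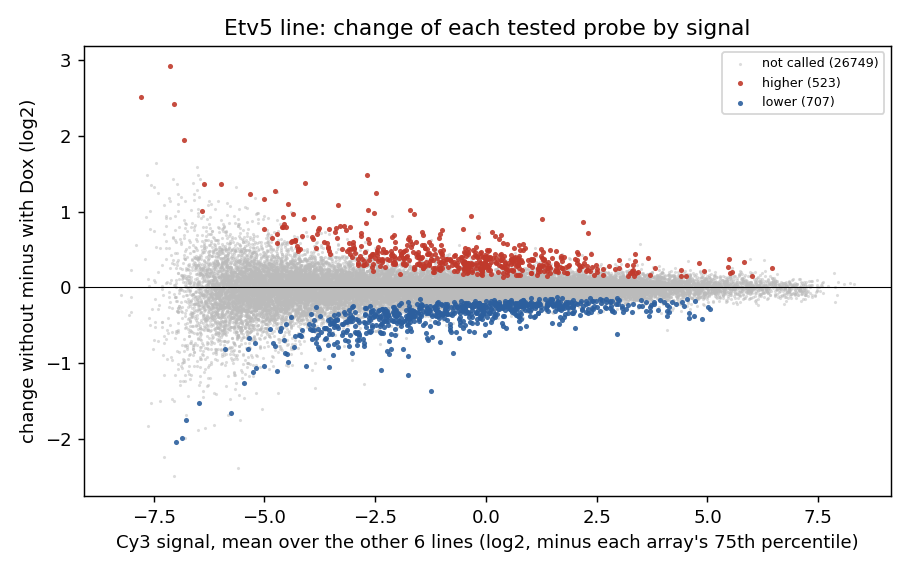
Change of each tested probe in the Etv5 line (vertical axis, log2 without minus with Dox) against its mean Cy3 signal in the other 6 lines (horizontal axis, log2 relative to each array's 75th percentile); red points are the 523 called rises, blue points the 707 called falls and grey points the rest. The cloud narrows to the right, and called changes shrink with it, from a median size of 0.77 in the lowest of 4 equal parts to 0.25 in the brightest.

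Probes with a low ratio of ES cells to the reference fell more often than they rose. Among the lowest of 4 equal parts by mean ratio in the other lines (-8.91 to -0.44), 367 fell and 170 rose, which is 5.25% and 2.43% of these probes. In the highest part (0.81 to 4.91), 129 fell and 174 rose, or 1.85% and 2.49%. The median level in the other lines was -0.50 for the falls, 0.33 for the rises and 0.24 for all tested probes. The 4 parts were cut from the other lines alone, so the Etv5 arrays did not place any probe in them.

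The uninduced clone differed from the other lines at far more probes than it changed. With Dox, 10890 probes (38.9%) differed in limma from the mean of the other 6 uninduced lines, a comparison in which clone and slide cannot be told apart. With slide as a random block 6196 differed. Relative to the mean of the other lines, the rises had a median of -0.18 with Dox and 0.17 without, and the falls 0.14 and -0.18, so that the median offset from their mean changed sign. In each culture most called probes were nevertheless at levels that other uninduced lines also had. Inside the range of those lines lay 340 of the 523 rises with Dox and 312 without, and 444 and 424 of the 707 falls. Of 27949 tested probes, 18999 and 18788 lay inside it. In both cultures 212 of the rises and 245 of the falls did, against 15896 of the 27949. The with-Dox arrays enter the choice of called probes, which by itself favours the signs of the median offsets above, so no test is given. Of the 523 rises, 128 (24.5%) left the range of the other uninduced lines and 100 (19.1%) entered it. Of the 707 falls, 199 (28.1%) left it and 179 (25.3%) entered it. Over all tested probes 11.1% left and 10.3% entered. Called probes were chosen for their change, which by itself favours crossing the edge of a range, so no test of these shares is given.

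The Etv5 change of 837 probes (2.99%) differed in limma from the average of the changes in the other 6 lines, with 363 higher and 474 lower. Among the 1230 called probes 734 passed that test too, 314 of the rises and 420 of the falls. The 1230 were chosen by the same Etv5 change that enters this difference, which by itself favours a pass. A probe that missed it is not thereby shown to respond alike in all lines, and 3904 probes had an unadjusted p under 0.05.

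The line whose change came nearest to that of Etv5 was Mettl5. In the Mettl5 line, 484 of the 523 Etv5 rises (92.5%) were higher without Dox and 609 of the 707 falls (86.1%) were lower, where 50.4% of all tested probes were higher. The sizes were smaller: the median change in the Mettl5 line was 0.12 for the Etv5 rises and -0.08 for the falls, against 0.37 and -0.32 in the Etv5 line. Only 7 probes (0.025%) were called in the Mettl5 line, all higher, and 5 of them were among the Etv5 rises. The changes of the 2 lines differed at 11 probes (0.0393%), all of them among the 1230. This count varied with the spread estimate and was 183 without the Tbx3 arrays, and 1771 probes had an unadjusted p under 0.05, so a missing call shows no likeness. Both lines had their arrays in the same order on their slides, and shared no array.

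The other lines fell on both sides. In the Jmjd2c line 432 of the 523 rises (82.6%) and 551 of the 707 falls (77.9%) had the Etv5 sign, with medians of 0.10 and -0.07. Ctbp2 followed with 64.4% and 71.0%, and Tcl1 with 54.9% and 64.1%. In the Jarid2 line, whose arrays were laid out as in the Etv5 line, 34.6% and 26.7% had the Etv5 sign. In the Tbx3 line only 91 rises (17.4%) and 129 falls (18.2%) did, with medians of -0.15 and 0.11. Across all tested probes Pearson's r with the Etv5 change was 0.21 for Mettl5, 0.13 for Jmjd2c, 0.12 for Ctbp2, 0.08 for Tcl1, -0.03 for Jarid2 and -0.14 for Tbx3. These are descriptions across probes, which are not independent, and lines share the array layout, except that the Tbx3 arrays came from 2 slides with wells with Dox at positions 2 and 3 and those without at 3 and 4. The part of position in these shares was not tested.

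**Figure D4:**
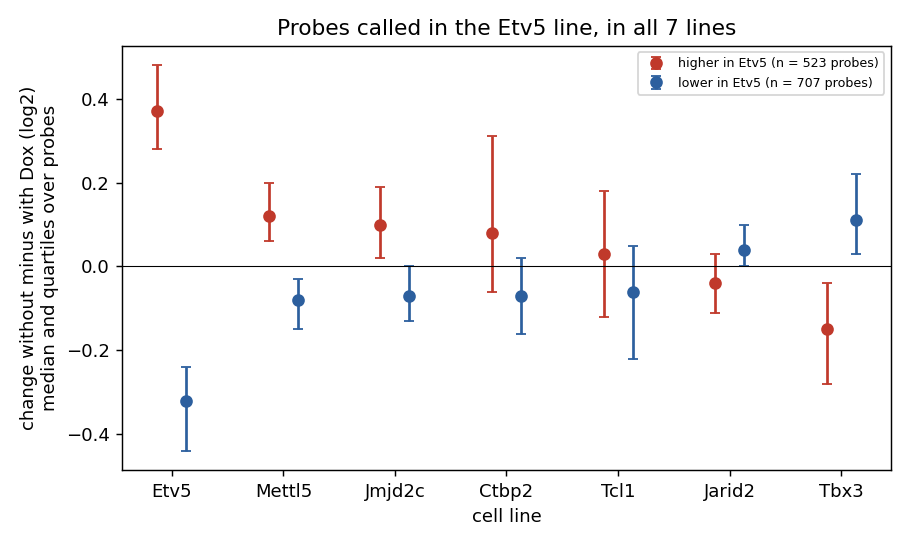
Change without minus with Dox (log2, vertical axis) of the 523 probes called higher (red) and the 707 called lower (blue) in the Etv5 line, in each of the 7 lines (horizontal axis); points are medians and bars the quartiles over probes. The red and blue medians are 0.12 and -0.08 in the Mettl5 line and change places in the Tbx3 line, at -0.15 and 0.11.

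Calls shared with the 3 lines that had most of their own were as follows. Of the 523 Etv5 rises, 138 were also called higher in the Ctbp2 line, 26.4% of the Etv5 rises and 14.2% of the 970 Ctbp2 rises, where 3.47% of tested probes rose in the Ctbp2 line. Of the 707 falls, 146 were also called lower in the Tcl1 line, 20.7% of the Etv5 falls and 11.7% of the 1250 Tcl1 falls, where 4.47% fell. Both lines also had shared calls in the other directions. In the Ctbp2 line 78 Etv5 falls were called lower, but 36 rises were called lower and 38 falls higher. In the Tcl1 line 95 Etv5 rises were called higher, but 78 rises were called lower and 37 falls higher. Over all tested probes 557 fell in the Ctbp2 line and 840 rose in the Tcl1 line. With Tbx3 the shared calls were nearly all opposite: 160 rises fell there and 151 falls rose there, against 5 and 2 in the same direction, where 3.93% of tested probes fell and 3.04% rose in the Tbx3 line. The change differed from that of the Tbx3 line at 2769 probes (9.9%), of the Tcl1 line at 1218 (4.35%), of the Ctbp2 line at 933 (3.33%), of the Jarid2 line at 667 (2.38%) and of the Jmjd2c line at 111 (0.397%).

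Pairs of probes that share sequence were compared within each array. A shared stretch does not show that both probes report the same RNA, since the files pair no probe with a gene. There were 974 tested pairs with at least 25 bases in common, made of 1555 probes of which 93 were called (5.98%). In 37 pairs both probes were called, and in all 37 they moved the same way, 23 up and 14 down, with a median difference of 0.03 and a largest of 0.26 on the log2 scale. In 25 more pairs 1 probe was called, and the other had the same sign in all 25. Over all 974 pairs the median difference was 0.04, and 19 pairs had identical sequence. The share of all pairs with the same sign was not counted, so these counts have no background beside them. The probes of a pair share the sample and the array and are not replicates. Shared bases are in capitals in the pairs below, the first with 36, the second with 39, the third with 53 and the last with 29.
Z00035221-1: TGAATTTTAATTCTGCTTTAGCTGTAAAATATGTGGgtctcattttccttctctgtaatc
Z00075197-1: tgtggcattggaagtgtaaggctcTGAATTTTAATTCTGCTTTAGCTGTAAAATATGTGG
Z00027760-1: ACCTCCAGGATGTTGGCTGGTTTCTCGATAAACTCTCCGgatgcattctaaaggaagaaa
Z00054271-1: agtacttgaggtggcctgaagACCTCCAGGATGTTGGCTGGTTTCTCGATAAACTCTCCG
Z00035325-1: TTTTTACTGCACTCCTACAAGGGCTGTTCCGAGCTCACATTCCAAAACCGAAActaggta
Z00075146-1: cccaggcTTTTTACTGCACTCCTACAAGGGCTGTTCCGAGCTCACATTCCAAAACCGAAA
Z00045261-1: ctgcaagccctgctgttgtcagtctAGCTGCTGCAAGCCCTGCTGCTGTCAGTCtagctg
Z00076571-1: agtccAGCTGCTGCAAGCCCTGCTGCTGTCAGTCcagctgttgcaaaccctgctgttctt

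The first pair was a rise seen by both probes. Z00035221-1 went from 0.73 and 0.70 with Dox to 1.31 and 1.32 without, and Z00075197-1 from 0.72 and 0.67 to 1.22 and 1.30, rises of 0.60 ± 0.08 and 0.57 ± 0.09 (SE, n = 2 per culture; limma adjusted p = 0.00033 and 0.00143). Levels and changes of the probes were almost equal. Both also rose in the Ctbp2 line, by 0.49 and 0.48, and fell in the Tcl1 line, by 0.38 and 0.36.

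The second pair was a fall at a low level. Z00027760-1 went from -1.0 and -1.10 to -1.88 and -2.19, and Z00054271-1 from -0.73 and -1.09 to -1.69 and -1.69, changes of -0.99 ± 0.14 and -0.78 ± 0.21 (SE, n = 2 per culture; limma adjusted p = 0.000542 and 0.0472). Both probes moved down, the first further, and Z00027760-1 was well above background on 1 of the 2 arrays without Dox. With normexp and loess the changes were -0.30 and -0.26. Z00054271-1 lost its call there, with median centring, with no filter and without any 1 of the 4 Etv5 arrays (limma adjusted p = 0.0508 to 0.406).

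The third pair fell by almost the same amount. Z00035325-1 went from -0.05 and -0.06 to -0.68 and -0.65, and Z00075146-1 from -0.11 and -0.11 to -0.65 and -0.80, changes of -0.61 ± 0.12 and -0.62 ± 0.11 (SE, n = 2 per culture; limma adjusted p = 0.00683 and 0.00492). With normexp and loess they were -0.21 and -0.31, and Z00035325-1 lost its call (limma adjusted p = 0.0951). It lost it also with the replicate block and without any 1 of the 4 Etv5 arrays (limma adjusted p = 0.0513 to 0.0653), and Z00075146-1 without replicate 1 with Dox or replicate 2 without (limma adjusted p = 0.0519 and 0.0772). In the last pair the probes parted. Z00076571-1 fell from 2.42 and 2.35 to 1.81 and 1.76, by 0.60 ± 0.08 (SE, n = 2 per culture; limma adjusted p = 0.000342), while Z00045261-1 was at 1.19 and 1.36 with Dox and at 1.17 and 1.14 without (change -0.12 ± 0.09, limma adjusted p = 0.634). These 2 share 29 bases within a stretch of near repeats, as their sequences show. A further pair, not printed above, shares 48 bases and also had 1 probe called. Z00053024-1 changed by -0.81 ± 0.17 and Z00075320-1 by -0.33 ± 0.17 (SE, n = 2 per culture; limma adjusted p = 0.0136 and 0.378). With normexp and loess the call of Z00053024-1 was lost (limma adjusted p = 0.171). Why the probes of either pair parted was not tested.

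**Figure D5:**
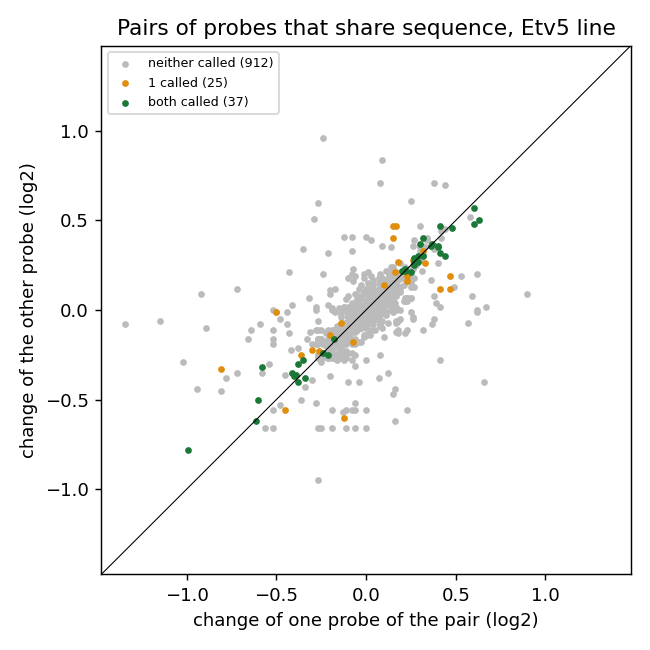
Change in the Etv5 line (log2 without minus with Dox) of one probe against the other for the 974 tested pairs that share at least 25 bases, with the line of equality; green points have both probes called (37), orange points 1 (25) and grey points neither. The green points lie along the line, at most 0.26 apart, while uncalled pairs scatter around 0.

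Some probes could be placed next to a gene's start. RefSeq sequences of 300 bases around annotated starts (250 before and 50 after, build GRCm38.p6) held 267 of the probes whole, of which 185 were tested and 5 called (2.7%, against 4.4% of all tested probes). A match gives a position, and not the RNA that the probe measured, since a probe before a start lies outside that transcript as annotated. The sequence of the only called probe that spans a start and of the one with several matches are given here.
Z00027795-1: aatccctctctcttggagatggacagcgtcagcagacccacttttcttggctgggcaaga
Z00010110-1: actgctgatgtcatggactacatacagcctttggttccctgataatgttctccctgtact

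Z00027795-1 lies at chr4:141614324-141614383 on the strand opposite to AI507597 and covers its annotated start. It fell from 1.59 and 1.55 with Dox to 1.23 and 1.20 without, a change of -0.36 ± 0.06 (SE, n = 2 per culture; limma adjusted p = 0.00157), and this change differed from the mean of the other 6 lines (limma adjusted p = 0.00124). For the other 4 probes that difference did not pass. Z00010110-1 matches before the starts of Gm21190, Gm21083 and Speer4d, all on chromosome 5 and on the opposite strand, so its signal cannot be given to 1 of them. It fell from 2.90 and 2.98 to 2.34 and 2.34, a change of -0.60 ± 0.12 (SE, n = 2 per culture; limma adjusted p = 0.00903), and lost its call without any 1 of the 4 Etv5 arrays (limma adjusted p = 0.0566 to 0.0881).

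The 3 remaining probes lie before a start on the gene's own strand. Z00022927-1 at chr17:26199243-26199302, from 215 to 156 bases before the start of Pdia2, a protein disulfide isomerase, rose from 0.27 and 0.28 to 0.49 and 0.45, by 0.19 ± 0.04 (SE, n = 2 per culture; limma adjusted p = 0.0112). Z00056002-1 at chr4:129619274-129619333, before the start of Iqcc, rose from 0.28 and 0.32 to 0.56 and 0.55, by 0.26 ± 0.07 (limma adjusted p = 0.0469). Z00031269-1 at chr8:20649115-20649174, before the start of Gm46074, fell from 0.50 and 0.45 to -0.03 and -0.18, by 0.58 ± 0.15 (limma adjusted p = 0.041). All 3 calls rest on every array: each was lost with the replicate block (limma adjusted p = 0.0522, 0.122 and 0.14) and without any 1 of the 4 Etv5 arrays (limma adjusted p = 0.0539 to 0.307). That of Z00022927-1 was lost in Cy3 alone, that of Z00031269-1 with no filter, and that of Z00056002-1 with no filter, median centring or the GC trend taken out (limma adjusted p = 0.208, 0.0707, 0.0884, 0.0562 and 0.0991). Of 2 tested probes that share at least 30 bases with a RefSeq miRNA hairpin, 0 were called.

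Probe composition moved with the changes to a small degree. The median GC content was 43.3% in the falls, 45% in the rises and 45% in all tested probes. Of the probes with at most 35% GC, 3.17% fell and 1.32% rose, and of those above 55%, 1.05% fell and 1.23% rose. With the trend on GC content taken out of each array the counts were 634 rises and 703 falls, so the excess of falls became smaller. The letters AATAAA or ATTAAA, known as poly(A) signals near the end of transcripts, stood in 15.1% of the rises and 12.3% of the falls, against 10.6% of tested probes. On the other strand they stood in 4.4%, 6.65% and 5.19%. Of the 10 probes described first, none holds them on the printed strand and only Z00041529-1 on the other.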

How the data were processed

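RNA of 28 samples, labelled with Cy3, was hybridised to 2-colour Agilent arrays together with the same Cy5-labelled reference RNA. Per the file headers, the authors read the arrays with Agilent Feature Extraction 9.5.1.1. The processed signals they deposited are intensity values, background-subtracted and dye-balanced per the file headers, and the mean and background signals are intensity values before normalization. Columns for detection, saturation and spot quality were deposited as other values (0 or 1, set by the scanner software). The authors also deposited log10 values of 25030 probes, with processing unstated. On the Etv5 arrays nearly all bright spots lay within 0.01 of the log10 Cy3 signal corrected by the deviation of the reference from its mean, with column medians of 2.28, 2.28, 2.28 and 2.27. How low values were bounded there is unknown.

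Levels were log2 of processed Cy3 over processed Cy5, with control spots left out and spots of a probe averaged. A group-means model of 14 groups was fitted with limma 3.58.1 in R 4.3.3 (statmod 1.5.0, data.table version 1.17.8; 14 residual and 1.76 prior degrees of freedom), two-sided, with Benjamini-Hochberg adjustment over the tested probes and a threshold of 0.05. 40 probes had fewer than 28 values in the fit. No spot was saturated, and 2 arrays per group limit the precision. The fit was tested on simulated data. The members, probes and lists were chosen with earlier results of these data known. The named-probe rule took the 2 largest rises and 2 largest falls among called probes without a gene whose cultures do not overlap and that are bright in the higher culture. Its parts that need gene names, and the gene lists, were not run, since the name column repeats the probe ID and no protein table was used here. Replicate numbers were not treated as a pairing. Across 27974 probes, the difference between the replicates with Dox correlated at -0.0338 with that between the replicates without Dox. With 2 arrays per culture this check says little about pairing. Alternatives were normexp (offset 50) with loess, Cy3 alone, median centring, the authors' log10 values, other filters, other sets of arrays, replicate or slide blocks and, chosen after seeing the data, removal of a GC trend.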

Additional observations from a re-analysis of the deposited data

Results flagged for a closer look

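For the 6 bright probes described first, the change in the Etv5 line differed from the mean change of the other 6 lines by limma's test of that difference. The difference was 0.58 for Z00062714-1, 0.87 for Z00074836-1 and 0.68 for Z00075454-1, with adjusted p of 6.77e-05, 4.09e-06 and 4.87e-05 in limma. It was -0.83 for Z00074986-1, -1.13 for Z00077019-1 and -0.96 for Z00024815-1, with adjusted p of 4.09e-06, 1.28e-05 and 4.2e-05 in limma. Both arrays without Dox lay on the same side of both arrays with Dox for each of the 6, which the choice of probes required. The 6 were chosen by the smallest p of the Etv5 change, which is part of this difference, so the choice favoured a pass. For Z00068697-1, chosen for the size of its change, the measured difference was 2.81 and passed the same test (limma adjusted p = 0.00159). The probe was not well above background with Dox and entered the test only through its arrays without Dox, which favours a rise. Its size is therefore not known beyond a rise of at least 1.39-fold, and the change itself was 0.58 with normexp and loess.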

How the results depend on the processing

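The count of called probes was 168 (79 higher, 89 lower) with a 1.5-fold minimum, 0 with the 4 Etv5 arrays alone, 2005 (797 and 1208) in the authors' table and 3357 (1380 and 1977) without the Tbx3 arrays. Leaving out each Etv5 array gave 345 to 572 calls, 159 to 230 higher and 186 to 342 lower. With the replicate block it was 1061, with normexp and loess 1690, and with no filter 935. Against the other 6 lines, the count was 125 with the 1.5-fold minimum, 1563 in the authors' table, 526 with no filter, 1981 without the Tbx3 arrays and 180 to 365 with an array left out. The count of probes whose change differed from the Mettl5 line was 20 with normexp and loess, 20 in Cy3 alone, 19 without the GC trend, 109 in the authors' table, 1 with the replicate block, 183 without the Tbx3 arrays and 5 to 13 with an array left out. Between uninduced lines it was 1910 with the 1.5-fold minimum, 6196 with slide as a random block and 6348 to 10523 with an array left out. In the Cy5 channel it was 0 with the 4 arrays alone and in probes well above background on all 4 arrays, 1 with the replicate block and 4 to 36 with an array left out. The cause of these moves was not tested. No named change reversed its direction. The 6 bright probes and Z00068697-1 kept their calls in every setting tried that held them except the 4 arrays alone. The weakest signals set the limit, since a probe near background has only a bound.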
